A study of Danio rerio with 12 samples.

Results

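The small RNA libraries of regenerating and uninjured caudal fin form a table of 146 distinct miRNAs, all of which are described here, with 2 further rows that repeat a sequence and its counts. The series holds 12 libraries, of which 6 are of small RNA. These are 3 libraries of caudal fin collected 4 days post-amputation (4 dpa) and 3 libraries of uninjured caudal fin taken at amputation (0 dpa), all from adult Ekkwill zebrafish, a wild-type line. Total RNA of several pooled fins went into each library, and p-values therefore measure the spread between pools. The pools mix cell types of the fin and, at 4 dpa, the blastema. How much stump tissue the 4 dpa pieces held is not given in the sources used here.

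A miRNA is a short RNA cut from a hairpin precursor and loaded into an Argonaute protein, which it guides to messenger RNAs. Pairing rests mainly on the seed, bases 2 to 8 of the miRNA, so that miRNAs with the same seed are read as a family with largely shared targets. Either strand of the hairpin can give the mature miRNA, named 5p or 3p by its arm, and neighbouring hairpins are often cut from a single transcript. In zebrafish fins, miR-133 and miR-203 are known to be lowered during regrowth, and miR-21 is known in many injured tissues.

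The sequences below are the tags behind the main results. They come from the study's list of zebrafish mature miRNAs, which matched every row, and are written 5′ to 3′ with T for U and with the seed in capitals. The first set holds miR-21, the abundant miR-462 and some of the most changed miRNAs, each with a seed that no other miRNA of the table carries:
miR-21-1-5p: tAGCTTATcagactggtgttggc
miR-462-5p: tAACGGAAcccataatgcagctg
miR-31-5p: tGGCAAGAtgttggcatagctg
miR-15c-5p: aAGCAGCGcgtcatggttttca
miR-204-2-5p: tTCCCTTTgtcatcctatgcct
miR-2184-1-5p: aACAGTAAgagtttatgtgctg
miR-101b-3p: tACAGTACtgtgataactgaag
miR-338-1-3p: tCCAGCATcagtgattttgtt
miR-203b-3p: tGAAATGTtcaggaccacttga
miR-141-3p: tAACACTGtctggtaacgatg
miR-24-1-3p: tGGCTCAGttcagcaggaac
The second set holds members of families with a shared seed, shown because they changed by different amounts or in opposite directions (other members of some families are left out):
miR-181a-1-5p: aACATTCAacgctgtcggtgag
miR-181b-1-5p: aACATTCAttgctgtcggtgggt
miR-181c-5p: cACATTCAttgctgtcggtgggtt
miR-23a-1-3p: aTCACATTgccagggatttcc
miR-23b-3p: aTCACATTgccagggattaccact
miR-27b-3p: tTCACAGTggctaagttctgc
miR-27d-3p: tTCACAGTggctaagttctg
miR-27c-1-3p: tTCACAGTggttaagttctg
miR-27e-3p: tTCACAGTggctaagttcagt
miR-222a-3p: aGCTACATctggctactgggtctc
miR-221-1-3p: aGCTACATtgtctgctgggttt
miR-222b-3p: aGCTACATctgaatactgggtc
miR-15b-5p: tAGCAGCAcatcatggtttgta
miR-16b-5p: tAGCAGCAcgtaaatattggagt
miR-16a-5p: tAGCAGCAcgtaaatattggtg
miR-196b-5p: tAGGTAGTttcaagttgttgggc
miR-196d-5p: tAGGTAGTtttatgttgttgggt
miR-454b-3p: tAGTGCAAtattgcttatagggtc
miR-130c-1-3p: cAGTGCAAtattaaaagggca
miR-30d-5p: tGTAAACAtccccgactggaagct
miR-30e-2-5p: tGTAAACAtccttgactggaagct
miR-30b-5p: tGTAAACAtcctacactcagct
miR-26a-1-5p: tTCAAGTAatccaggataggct
miR-26b-5p: tTCAAGTAatccaggataggtt
miR-200b-3p: tAATACTGcctggtaatgatgc
miR-429a-3p: tAATACTGtctggtaatgccg
miR-218a-1-5p: tTGTGCTTgatctaaccatgtg
miR-218b-5p: tTGTGCTTgatctaaccatgt
The tag of miR-27d, 20 bases long, is the start of the 21-base tag of miR-27b, and the 21-base tag of miR-218b is the start of the 22-base tag of miR-218a. By the study's list of precursors, the last base of each shorter tag differs from its own hairpin and matches that of the longer tag. The rows of miR-27d and miR-218b can thus hold tags of miR-27b and miR-218a.

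The deposited values were log2(tag count + 1) with no scaling, and tag counts were recovered from them. The repeated rows were miR-200c-3p, equal to miR-200b-3p, and miR-200a-3p, equal to miR-141-3p. miR-21 alone gave 1.79, 2.47 and 1.91 tags per tag of all other miRNAs together at 4 dpa, against 0.146, 0.122 and 0.0968 at 0 dpa. Levels are therefore given as tags per 1000000 tags other than miR-21 (CPM), over totals of 278296, 278057 and 254926 tags at 4 dpa and 518401, 923447 and 340337 tags at 0 dpa. A single tag was worth 3.59 to 3.92 CPM at 4 dpa and 1.08 to 2.94 CPM at 0 dpa, so rare miRNAs were measured less precisely in the regenerate. Between 136 and 142 of the 145 other miRNAs had a tag in the 4 dpa libraries and 143 or 144 in the 0 dpa libraries. Replicates differed by more than counting error, with a chi-square per degree of freedom of 32 to 230 between libraries of the same day, so each counted as a separate sample.

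The order of the miRNAs by abundance was largely shared between the days. Spearman's rho across miRNAs, given as a description, was 0.95 between the mean profiles of 4 dpa and 0 dpa, 0.922 to 0.948 between single libraries of different days and 0.966 to 0.989 between libraries of the same day. The 10 most abundant miRNAs of each day shared 8 names, the 20 most abundant shared 15 and the 50 most abundant shared 44. The 10 most abundant took 72.1% ± 0.222 of the tags other than miR-21 at 4 dpa and 72.8% ± 1.37 at 0 dpa (SD, n = 3 each), a difference that the two-sided exact permutation test did not separate (p = 0.4). The effective number of miRNAs, the number of equally abundant miRNAs that would give the same diversity, was 21.1 ± 0.268 at 4 dpa and 23.8 ± 1.72 at 0 dpa (SD, n = 3 each). Each 4 dpa library had a lower number than each 0 dpa library, and the exact permutation p of 0.1 is the smallest that 3 libraries against 3 can give.

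miR-181a, best known from developing lymphocytes of the mouse, was the most abundant miRNA other than miR-21 at 4 dpa and the second at 0 dpa. It took 23.5% ± 1.51 of tags other than miR-21 at 4 dpa and 11.2% ± 1.97 at 0 dpa (SD, n = 3 each). It had 217897, 243817 and 244306 CPM at 4 dpa, against 89458, 121900.0 and 124979 CPM at 0 dpa, so that every 4 dpa library lay above every 0 dpa library (log2 fold-change 1.08, SE 0.17, limma adjusted p = 0.00125). miR-462, a fish miRNA cut from the same transcript as miR-731, held the second place at 4 dpa and the first at 0 dpa. It took 16.5% ± 2.3 of tags other than miR-21 at 4 dpa and 18.7% ± 3.45 at 0 dpa (SD, n = 3 each), with overlap between the days (log2 fold-change −0.18, SE 0.18, limma adjusted p = 0.493).

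Next in order at 4 dpa came miRNAs of immune signalling and of epithelia, with small differences between the days. miR-146a, which dampens innate immune signalling in mammals, took 5.92% ± 0.651 of tags other than miR-21 at 4 dpa and 4.78% ± 0.517 at 0 dpa (SD, n = 3 each, log2 fold-change 0.31, SE 0.15, limma adjusted p = 0.133). miR-184, abundant in surface epithelia, took 5.42% ± 0.858 of tags other than miR-21 at 4 dpa and 6.09% ± 1.25 at 0 dpa (SD, n = 3 each, log2 fold-change −0.16, SE 0.20, limma adjusted p = 0.57). miR-205, a marker of stratified epithelia, took 5.38% ± 0.212 of tags other than miR-21 at 4 dpa and 6.29% ± 0.542 at 0 dpa (SD, n = 3 each, log2 fold-change −0.22, SE 0.13, limma adjusted p = 0.215). None of these was called, that is, none had an adjusted p under 0.05 in the limma fit of all 146 miRNAs. The days were separate for miR-146a and miR-205 and overlapped for miR-184.

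Among the remaining abundant miRNAs, miR-10b, from a hox cluster, miR-26a and miR-204 lost places, and miR-27b gained them. miR-10b ranked 7 at 4 dpa and 3 at 0 dpa, with 31851, 37262 and 33578 CPM at 4 dpa, against 96252, 84092 and 79577 CPM at 0 dpa (log2 fold-change −1.34, SE 0.14, limma adjusted p = 0.000228). miR-26a ranked 12 and 8, with 24650.0, 20539 and 24815 CPM at 4 dpa, against 39967, 41118 and 57402 CPM at 0 dpa (log2 fold-change −0.97, SE 0.18, limma adjusted p = 0.00356). miR-27b ranked 8 and 17, with 32343, 29059 and 31162 CPM at 4 dpa, against 9558, 13968 and 11621 CPM at 0 dpa (log2 fold-change 1.41, SE 0.17, limma adjusted p = 0.00048). In these 3 no library of a day lay among those of the other. let-7a, of the family that times differentiation in worms and vertebrates, ranked 6 on both days. It took 3.51% ± 0.403 of tags other than miR-21 at 4 dpa and 5.73% ± 1.78 at 0 dpa (SD, n = 3 each) and just missed the threshold (log2 fold-change −0.67, SE 0.23, limma adjusted p = 0.052). let-7a was called with 0 dpa replicate 3 left out (−0.90, limma adjusted p = 0.00461). It was also called with limma-voom (adjusted p = 0.0481), with miRNAs under a mean of 10 tags left out (limma adjusted p = 0.0445) and with miR-462 left out of the totals (limma adjusted p = 0.0329). Without 0 dpa replicate 1 its log2 fold-change was −0.44, and it was not called. miR-22a and miR-92a, ranked 9 and 10 at 4 dpa, had log2 fold-changes of −0.03 and 0.12 and were not called.

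**Figure D1:**
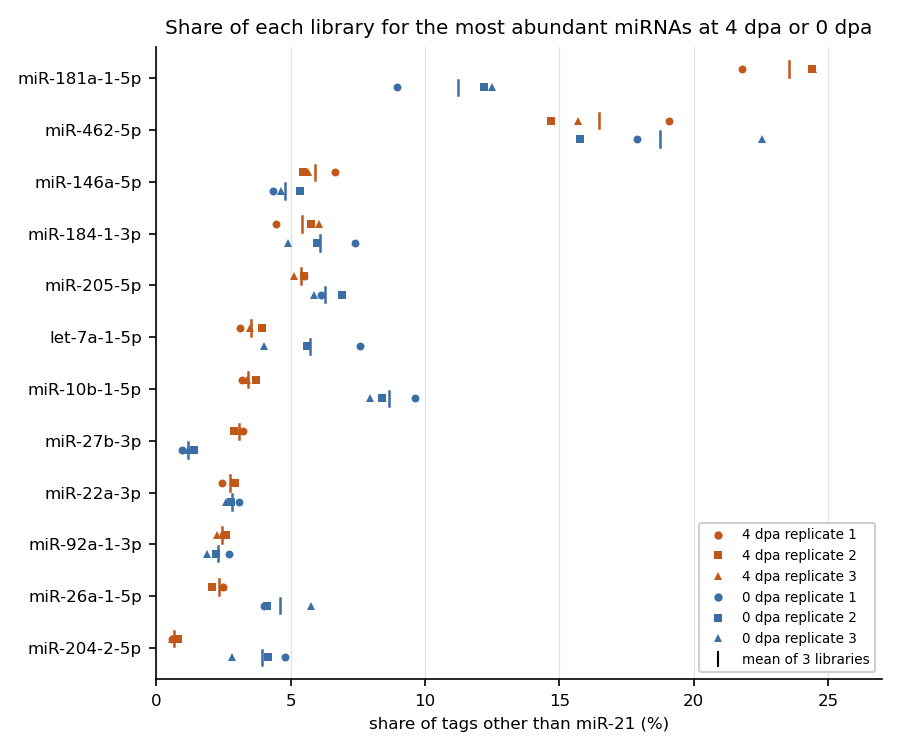
Share of tags other than miR-21, in percent, for the 12 miRNAs among the 10 most abundant at 4 dpa or at 0 dpa. Each point is a library and each bar the mean of 3 libraries, with 4 dpa above 0 dpa in each row. miR-181a lies between 21.8% and 24.4% in the 4 dpa libraries, above each 0 dpa library, and miR-10b and miR-204 lie below each 0 dpa library.

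Over all 146 distinct miRNAs, 60 (41.1%) were called, of which 32 (21.9%) were higher and 28 (19.2%) lower at 4 dpa. An unadjusted p under 0.05 was found for 73. In 77 (52.7%) each library of a day lay on the same side of all those of the other. A change of at least 2-fold was called in 25 that rose and 14 that fell. The median log2 fold-change was −0.10, and the median SD within a day was 0.33 on the log2 scale. In RNA of mixed tissue, fewer cells of a type and less RNA per cell cannot be told apart.

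These directions are relative to the tags other than miR-21. With totals that included miR-21, the median log2 fold-change became −1.37, and 8 miRNAs were called higher and 102 lower at 4 dpa. On that scale miR-181a (−0.35, limma adjusted p = 0.101) and miR-27b (−0.03, limma adjusted p = 0.911) were not higher. Leaving out 1 library at a time gave 46 to 65 calls. Of the 24 miRNAs named below as the largest rises and falls, all 24 were called in each of these 6 fits. With miR-21 in the totals, however, some of the rises were not called (limma adjusted p of 0.0834 to 0.309). These were miR-31 (log2 fold-change 0.70), miR-23b (0.59), miR-210-5p (0.56), miR-16a (0.49) and miR-132 (0.46).

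**Figure D2:**
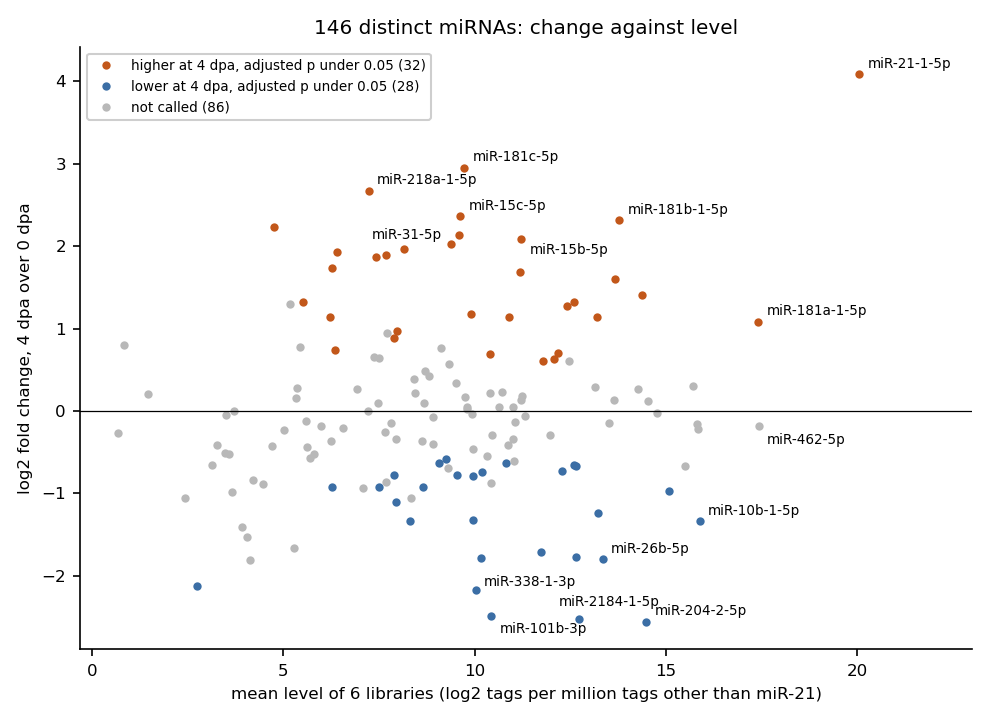
Log2 fold-change (4 dpa over 0 dpa) of 146 distinct miRNAs against their mean level in 6 libraries, in log2 CPM. Orange points are the 32 called higher at 4 dpa, blue points the 28 called lower, and grey points the 86 not called. miR-21 stands highest at 4.08, and called changes occur across the range of levels.

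The largest rise was that of miR-21, known to restrain the tumour suppressor PDCD4 in mammals. It had 496950, 685763 and 486141 tags at 4 dpa, against 75671, 112757 and 32941 tags at 0 dpa (log2 fold-change 4.08, SE 0.20, limma adjusted p = 5.45e-06). Both minor members of the miR-181 family were among the 12 largest rises. miR-181c had 1351, 1629 and 1498 CPM at 4 dpa, against 216, 252 and 123 CPM at 0 dpa (log2 fold-change 2.95, SE 0.28, limma adjusted p = 0.000157), and gained 45 places in rank, more than any other miRNA. miR-181b had 21111, 26710.4 and 22752 CPM at 4 dpa, against 5008, 5249.9 and 3964 CPM at 0 dpa (log2 fold-change 2.31, SE 0.17, limma adjusted p = 6.94e-05). Both rose by more than miR-181a, the main member.

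miR-218a, made from introns of slit genes, was rare on both days. It had 216, 313 and 259 CPM at 4 dpa, against 30.9, 35.7 and 47 CPM at 0 dpa (log2 fold-change 2.67, SE 0.27, limma adjusted p = 0.000228), from 60, 87 and 66 tags at 4 dpa, against 16, 33 and 16 tags at 0 dpa. The miR-15 and miR-16 group, which restrains cyclins in mammals, gave 3 of the 12 largest rises. miR-15c had 1459, 1122 and 1381 CPM at 4 dpa, against 293, 222 and 244 CPM at 0 dpa (log2 fold-change 2.37, SE 0.20, limma adjusted p = 0.000107). miR-15b had 4024, 3427 and 4154 CPM at 4 dpa, against 808, 926 and 999 CPM at 0 dpa (log2 fold-change 2.08, SE 0.17, limma adjusted p = 9.43e-05). miR-16a had 363, 248 and 365 CPM at 4 dpa, against 86.8, 102 and 64.6 CPM at 0 dpa (log2 fold-change 1.90, SE 0.27, limma adjusted p = 0.000978). In each of them the lowest 4 dpa library exceeded the highest 0 dpa library more than 2-fold.

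miR-31, induced in keratinocytes at wounds in mice, had 1236, 1651 and 855 CPM at 4 dpa, against 421, 343 and 138 CPM at 0 dpa (log2 fold-change 2.13, SE 0.43, limma adjusted p = 0.00482). Its 0 dpa libraries were uneven, with replicate 3 low. miR-23b, which by name matched 2 hairpin genes and neighbours both miR-27b and miR-27d, had 981, 1313 and 902 CPM at 4 dpa, against 336, 297 and 167 CPM at 0 dpa (log2 fold-change 2.02, SE 0.30, limma adjusted p = 0.000978). miR-196b, from a hox cluster, had 381, 572 and 412 CPM at 4 dpa, against 131, 114 and 94 CPM at 0 dpa (log2 fold-change 1.96, SE 0.25, limma adjusted p = 0.00054). Both were minor members of their families at 0 dpa.

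The remaining 2 of the 12 largest rises were also at low levels. miR-210-5p comes from the hairpin of miR-210, induced by hypoxia in mammals. It had 158, 86.3 and 161 CPM at 4 dpa, against 15.4, 33.6 and 55.8 CPM at 0 dpa (log2 fold-change 1.93, SE 0.46, limma adjusted p = 0.011), from 44, 24 and 41 tags at 4 dpa, against 8, 31 and 19 tags at 0 dpa. miR-132, induced by activity in mouse neurons, had 259, 342 and 212 CPM at 4 dpa, against 52.1, 106 and 61.7 CPM at 0 dpa (log2 fold-change 1.86, SE 0.33, limma adjusted p = 0.00247). The row is named miR-132-1-3p, but the study's list of precursors gives its sequence as the 5p arm. Its neighbour miR-212, from the other hairpin of the same transcript, was called as well (log2 fold-change 1.73, SE 0.46, limma adjusted p = 0.0178).

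The 12 largest falls were led by miR-204, which is abundant in pigmented epithelia of the eye. It had 5724, 8092 and 5982 CPM at 4 dpa, against 48013, 41597 and 28251 CPM at 0 dpa (log2 fold-change −2.56, SE 0.23, limma adjusted p = 0.000139), and ranked 22 at 4 dpa and 9 at 0 dpa. miR-2184, first described in fish and listed by the paper in axolotl too, had 2048, 1827 and 1852 CPM at 4 dpa, against 6352, 13717 and 15038 CPM at 0 dpa (log2 fold-change −2.52, SE 0.31, limma adjusted p = 0.00054). miR-101b, which targets the chromatin modifier EZH2 in human cells, had 499, 428 and 314 CPM at 4 dpa, against 1672, 2516 and 2871 CPM at 0 dpa (log2 fold-change −2.49, SE 0.27, limma adjusted p = 0.000228). It lost 43 places, more than any other miRNA. miR-338, which promotes glial maturation in the mouse, had 381, 295 and 431 CPM at 4 dpa, against 1107, 1803 and 2277 CPM at 0 dpa (log2 fold-change −2.17, SE 0.29, limma adjusted p = 0.000674). In 0 dpa replicate 1 miR-2184, miR-101b and miR-338 were lower than in the other 0 dpa libraries. They were still above each 4 dpa library, which the choice of the 12 required.

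Epithelial miRNAs made up 3 of the 12. miR-203b, of a family that drives skin cells out of the cell cycle in mice, had 2512, 2611 and 3738 CPM at 4 dpa, against 10185, 9257 and 10343 CPM at 0 dpa (log2 fold-change −1.77, SE 0.19, limma adjusted p = 0.000228). miR-200b, which keeps epithelial identity by repressing ZEB factors in mammals, had 420.4, 622 and 471 CPM at 4 dpa, against 2359, 1925 and 1125 CPM at 0 dpa (log2 fold-change −1.78, SE 0.30, limma adjusted p = 0.00216). miR-141, its relative, had 1570.3, 1349 and 1839.8 CPM at 4 dpa, against 3924, 5598 and 6170.4 CPM at 0 dpa (log2 fold-change −1.70, SE 0.22, limma adjusted p = 0.00054). The days were separate in all 3, as the choice of the 12 required, although miR-200b was uneven at 0 dpa.

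miR-26b had 4732, 3880.5 and 4641 CPM at 4 dpa, against 9113, 16902 and 23130.0 CPM at 0 dpa (log2 fold-change −1.79, SE 0.32, limma adjusted p = 0.00247), a larger change than in miR-26a, whose tag carries the same seed. miR-23a had 535, 521 and 639 CPM at 4 dpa, against 1483, 1263 and 1522 CPM at 0 dpa (log2 fold-change −1.33, SE 0.18, limma adjusted p = 0.000674). miR-24 had 162, 183 and 188 CPM at 4 dpa, against 359, 479.7 and 538 CPM at 0 dpa (log2 fold-change −1.33, SE 0.23, limma adjusted p = 0.00231). miR-23a and miR-24 are cut from shared transcripts in vertebrates, and their log2 fold-changes were both −1.33. By name miR-24 matched 4 hairpin genes, however, and miR-24 also neighbours miR-23b and miR-27b, which rose. miR-725, first described in fish and listed by the paper in axolotl too, had 5552, 5046 and 6308 CPM at 4 dpa, against 12897, 17675 and 10249 CPM at 0 dpa (log2 fold-change −1.24, SE 0.22, limma adjusted p = 0.00247). The other of the 12 was miR-10b, described above.

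**Figure D3:**
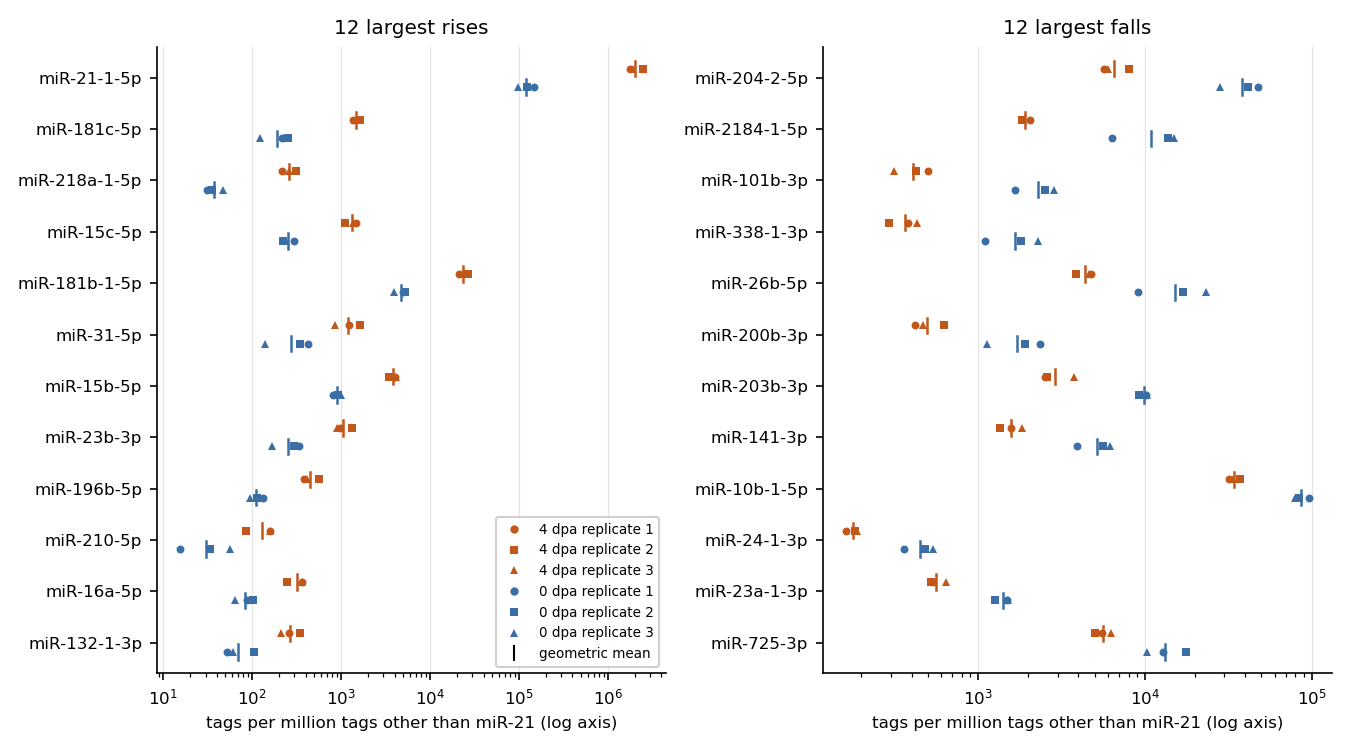
CPM on a log axis for the 12 largest rises (left) and the 12 largest falls (right). Points are libraries and bars geometric means, with 4 dpa above 0 dpa in each row. In each of the 24 rows the 4 dpa points are separate from the 0 dpa points, as the rule that chose these rows required.

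Tag counts summed over each seed give the amount of a seed in the libraries. The 146 miRNAs carried 93 seeds, of which 23 were shared by 2 or more miRNAs (76 in all) and 70 belonged to 1 miRNA. Of the 93 sums 39 (41.9%) were called, 20 (21.5%) higher and 19 (20.4%) lower at 4 dpa, and in 49 (52.7%) the days were separate. Shared seeds together took 64.3% ± 1.59 of tags other than miR-21 at 4 dpa and 55.1% ± 1.33 at 0 dpa (SD, n = 3 each). The shared seed of miR-181 took 26% of tags at 4 dpa and 11.7% at 0 dpa by itself.

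The miR-181 seed (ACATTCA) was, after that of miR-21, the most abundant at 4 dpa, with 26% ± 1.74 of tags at 4 dpa and 11.7% ± 1.94 at 0 dpa (SD, n = 3 each). All 3 of its members were called higher, and the sum rose (log2 fold-change 1.17, SE 0.17, limma adjusted p = 0.000847), a direction that turned to −0.27 when miR-21 was kept in the totals. The miR-10 seed (ACCCTGT) fell, with 3.82% ± 0.283 of tags at 4 dpa and 9.33% ± 0.896 at 0 dpa (SD, n = 3 each, log2 fold-change −1.29, SE 0.13, limma adjusted p = 0.000192), and 2 of its 4 members were called lower. The miR-26 seed (TCAAGTA) fell too, with 2.78% ± 0.289 of tags at 4 dpa and 6.25% ± 1.62 at 0 dpa (SD, n = 3 each, log2 fold-change −1.15, SE 0.20, limma adjusted p = 0.00241).

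The let-7 seed (GAGGTAG), with 9 members, took 6.29% ± 0.898 of tags at 4 dpa and 8.08% ± 2.45 at 0 dpa (SD, n = 3 each) and was not called (log2 fold-change −0.32, SE 0.24, limma adjusted p = 0.308). It was called lower without 0 dpa replicate 3 (−0.56, limma adjusted p = 0.0374). Without 0 dpa replicate 1 its log2 fold-change was −0.11, and it was not called. Its libraries spread widely at 0 dpa, with 10.5%, 8.13% and 5.61% of tags, and overlapped those of 4 dpa, with 5.37%, 7.16% and 6.36%. The seeds of miR-146 (GAGAACT), at 6.28% ± 0.71 of tags at 4 dpa and 5.22% ± 0.548 at 0 dpa (SD, n = 3 each), miR-462 (AACGGAA), miR-184 (GGACGGA) and miR-205 (CCTTCAT) were, miR-21 aside, among the 5 largest on a day and were not called.

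Among families that were less abundant, the miR-15/16 seed (AGCAGCA) and the miR-221/222 seed (GCTACAT), both tied to the cell cycle in mammals, rose. The first took 0.557% ± 0.04 of tags at 4 dpa and 0.221% ± 0.00972 at 0 dpa (SD, n = 3 each, log2 fold-change 1.33, SE 0.13, limma adjusted p = 0.000189), and 4 of its 5 members were called higher. The second took 2.08% ± 0.117 of tags at 4 dpa and 0.873% ± 0.248 at 0 dpa (SD, n = 3 each, log2 fold-change 1.29, SE 0.22, limma adjusted p = 0.00225), and only its main member miR-222a was called. The miR-30 seed (GTAAACA) took 2.55% ± 0.23 of tags at 4 dpa and 1.3% ± 0.177 at 0 dpa (SD, n = 3 each, log2 fold-change 0.97, SE 0.15, limma adjusted p = 0.00131), with 3 members called higher and miR-30b lower. With miR-21 kept in the totals these 3 log2 fold-changes were −0.11, −0.14 and −0.47, so their directions hold relative to the other miRNAs only.

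The miR-27 seed (TCACAGT) took 4.71% ± 0.0658 of tags at 4 dpa and 3.24% ± 0.623 at 0 dpa (SD, n = 3 each, log2 fold-change 0.55, SE 0.16, limma adjusted p = 0.0235), a value that turned to −0.88 with miR-21 in the totals. It missed the threshold without 4 dpa replicate 1, 2 or 3 or 0 dpa replicate 1, with limma adjusted p of 0.0564 to 0.076. The miR-218 seed (TGTGCTT) was rare and rose (log2 fold-change 2.36, SE 0.29, limma adjusted p = 0.0004). The seed of miR-200b and miR-429a (AATACTG) fell, with 0.233% ± 0.0154 of tags at 4 dpa and 0.411% ± 0.0671 at 0 dpa (SD, n = 3 each, log2 fold-change −0.81, SE 0.16, limma adjusted p = 0.00463). The miR-19 seed (GTGCAAA) had a smaller fall (log2 fold-change −0.54, SE 0.17, limma adjusted p = 0.0341), which missed the threshold without any 1 library other than 0 dpa replicate 3, with limma adjusted p of 0.0777 to 0.124, and with TMM scaling (limma adjusted p = 0.0508).

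Members of a family did not always change together. For each of the 116 pairs of miRNAs with the same seed, the ratio of tags within a library was compared between the days, a measure that depends on the scaling of libraries only through the value added before the logarithm. The 116 pairs draw on 76 miRNAs and so are not independent. The tags of a pair can differ in length, and whether length played a part in the ratios was not tested. In 56 pairs (48.3%) the ratio was called as changed, and in 65 (56.0%) the days were separate. The share among all pairs of miRNAs was not computed, so these counts do not set families apart from other pairs. In 10 pairs 1 member was called higher and the other lower. Of the 101 pairs with both members at 50 CPM or more, 55 were called.

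The pair with the largest change was miR-23a against miR-23b, whose tags share all but 1 of the 21 bases they have in common. The ratio of miR-23a to miR-23b was 0.546, 0.397 and 0.709 at 4 dpa, against 4.42, 4.26 and 9.09 at 0 dpa (log2 change −3.35, SE 0.33, limma adjusted p = 5.61e-05). miR-23b was thus the main member at 4 dpa and miR-23a at 0 dpa. Their sum took 0.163% ± 0.0177 of tags at 4 dpa and 0.169% ± 0.013 at 0 dpa (SD, n = 3 each, log2 fold-change −0.05, SE 0.15, limma adjusted p = 0.777) and was not called.

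In the hox-linked miR-196 family the order of the minor members differed between the days. The ratio of miR-196b to miR-196d was 3.79, 3.53 and 3.75 at 4 dpa, against 0.466, 0.528 and 0.451 at 0 dpa (log2 change 2.88, SE 0.22, limma adjusted p = 1.15e-05). miR-196a was the most abundant of the 3 in each library, with 58.8% ± 5.79 of the family at 4 dpa and 65% ± 2.76 at 0 dpa (SD, n = 3 each). In the miR-15/16 family miR-15b and miR-16a gained on miR-16b. The ratio of miR-15b to miR-16b was 4.36, 3.43 and 4.25 at 4 dpa, against 0.704, 1.13 and 0.963 at 0 dpa (log2 change 2.12, SE 0.22, limma adjusted p = 6.78e-05). The ratio of miR-16b to miR-16a was 2.54, 4.03 and 2.68 at 4 dpa, against 13.2, 8.02 and 16 at 0 dpa (log2 change −1.93, SE 0.32, limma adjusted p = 0.000964). miR-16b itself had a log2 fold-change of −0.04 and was not called, while miR-15b and miR-16a rose.

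In the miR-221/222 family miR-222a gained on both others. The ratio of miR-222a to miR-221 was 22.6, 18.9 and 21.1 at 4 dpa, against 3.43, 3.39 and 4.53 at 0 dpa (log2 change 2.47, SE 0.18, limma adjusted p = 1.15e-05). The ratio of miR-222a to miR-222b was 83.9, 85 and 101 at 4 dpa, against 29.2, 25.9 and 16.6 at 0 dpa (log2 change 1.94, SE 0.26, limma adjusted p = 0.000355). miR-222a took 94.4% ± 0.405 of the family at 4 dpa and 76.2% ± 1.67 at 0 dpa (SD, n = 3 each). In the family of miR-130, miR-301 and miR-454, the ratio of miR-454b to miR-130c was 6.44, 10.3 and 9.33 at 4 dpa, against 2.73, 1.43 and 1.32 at 0 dpa (log2 change 2.28, SE 0.33, limma adjusted p = 0.000418). Here miR-454b was called higher and miR-130c lower.

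miR-27b gained on each of the other 3 rows of its family. The ratio of miR-27b to miR-27c was 6.59, 6.05 and 6.79 at 4 dpa, against 1.72, 1.59 and 1.34 at 0 dpa (log2 change 2.07, SE 0.16, limma adjusted p = 1.15e-05). The ratio of miR-27b to miR-27e was 67.2, 67.9 and 56.7 at 4 dpa, against 14.8, 16.7 and 16.2 at 0 dpa (log2 change 2.00, SE 0.18, limma adjusted p = 3.58e-05). Outside the 10 largest changes, and chosen after its values were seen, the ratio of miR-27b to miR-27d was 3.24, 2.4 and 2.87 at 4 dpa, against 0.865, 0.901 and 1.11 at 0 dpa (log2 change 1.56, SE 0.18, limma adjusted p = 0.000117), although the tag of miR-27d is that of miR-27b less its last base. How reads were assigned between these tags is not given in the sources used here. The miR-27d tag matches the hairpin of miR-27b and not its own at the last base. This ratio may therefore compare tags of the same hairpin. In the miR-30 family the ratio of miR-30e to miR-30b was 17.8, 9.51 and 14.3 at 4 dpa, against 1.5, 3.79 and 5.89 at 0 dpa (log2 change 2.05, SE 0.45, limma adjusted p = 0.00474), with a wide spread at 0 dpa.

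**Figure D4:**
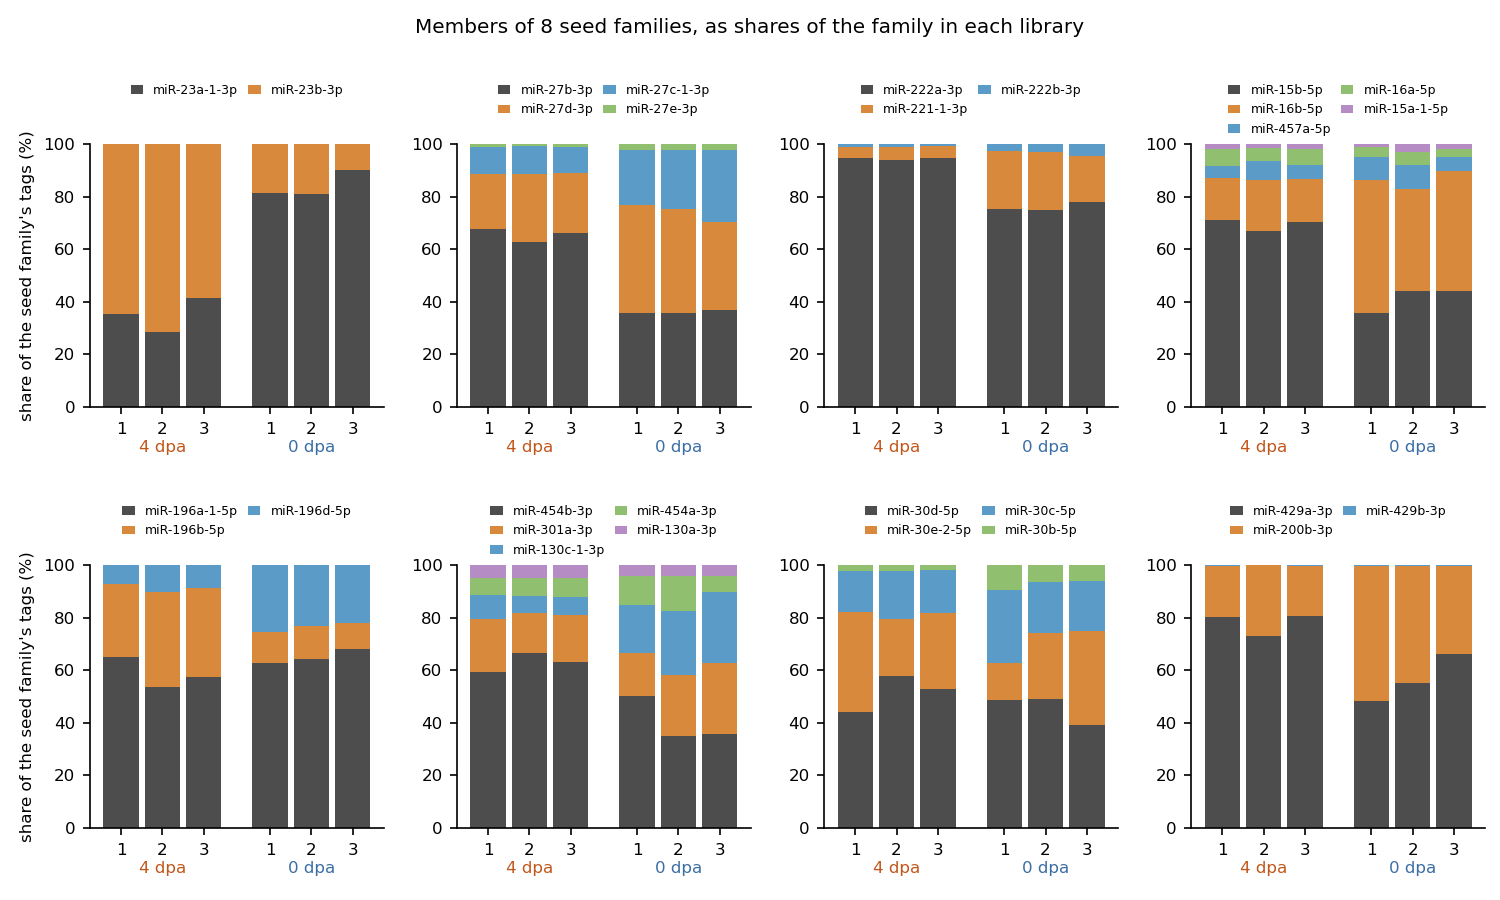
Shares of 8 seed families held by each member, in percent of the family's tags, with 1 bar per library (4 dpa left, 0 dpa right). miR-23b holds 58.5% to 71.6% of its family in the 4 dpa libraries and 9.91% to 19.0% in the 0 dpa libraries.

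**Figure D5:**
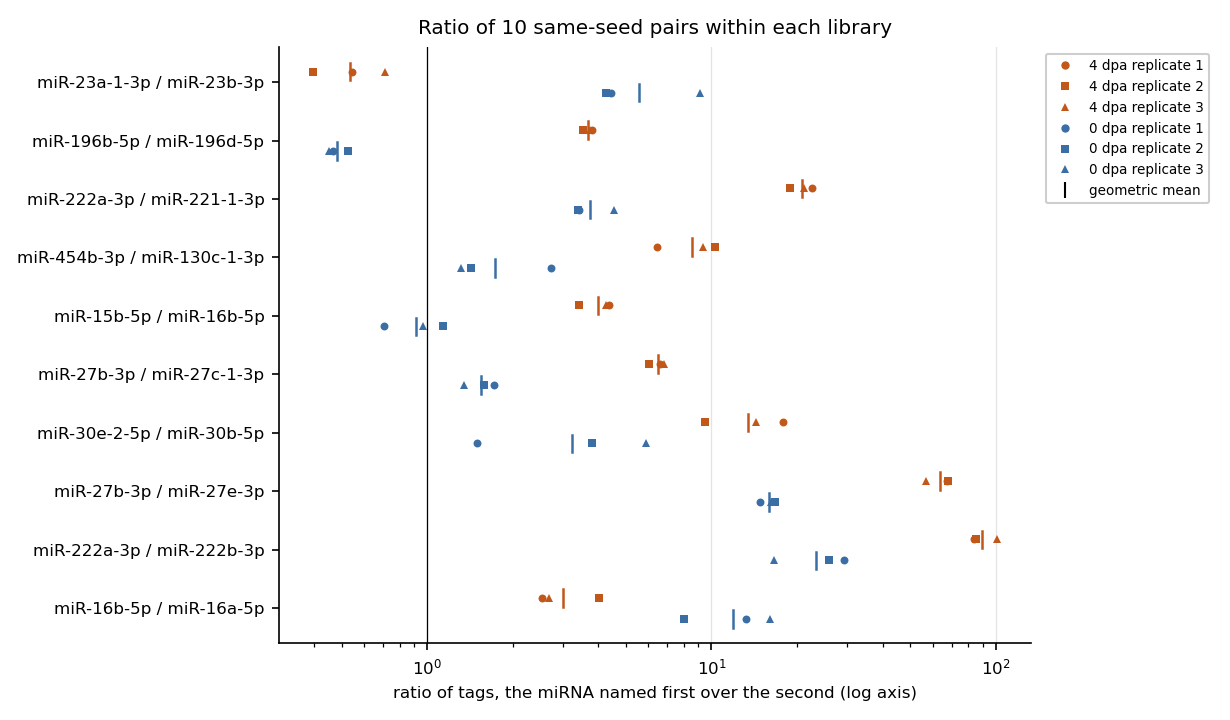
Ratio of tags within each library, on a log axis, for the 10 same-seed pairs with the largest change, the miRNA named first over the second. Points are libraries and bars geometric means, with 4 dpa above 0 dpa in each row. The ratio of miR-23a to miR-23b lies below 1 in each 4 dpa library and above 4 in each 0 dpa library.

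The let-7 family, which holds 36 of the 116 pairs, changed in makeup while its sum was not called. let-7a took 55.9% ± 1.79 of the family at 4 dpa and 70.9% ± 1.51 at 0 dpa (SD, n = 3 each). let-7f took 10.7% ± 1.53 of the family at 4 dpa and 5.58% ± 0.534 at 0 dpa (SD, n = 3 each), and let-7e took 15.7% ± 1.86 of the family at 4 dpa and 10.2% ± 0.803 at 0 dpa (SD, n = 3 each). let-7a thus held less of the family in each 4 dpa library. let-7j, at 2483, 2564 and 2868 CPM at 4 dpa, against 1346, 1192 and 1055 CPM at 0 dpa, was the only one of the 9 called by its own level (log2 fold-change 1.14, SE 0.17, limma adjusted p = 0.000978). The ratio of let-7a to let-7j was 12.5, 15.3 and 12.2 at 4 dpa, against 56.2, 47.1 and 38 at 0 dpa (log2 change −1.81, SE 0.19, limma adjusted p = 7.32e-05).

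Hairpins that lie close together are often transcribed as 1 unit, so the same comparison was made for the 63 pairs of miRNAs with hairpin genes within 10000 bases of each other in RefSeq's zebrafish annotation. These pairs were taken up after the other results had been seen. Hairpin genes were found by name, for 143 of the 146 miRNAs. None was found for miR-143, miR-2184 and miR-551, so the pair of miR-143 and miR-145 was not among the 63. In 20 pairs (31.7%) the ratio was called as changed, in 31 (49.2%) the days were separate, and in 6 the members were called in opposite directions. Here too the share among all pairs of miRNAs was not computed. Of the 44 pairs with different seeds 11 were called, and 4 of these had opposite calls. A tag made from several hairpins is counted once, so such a ratio can mix transcripts. By name miR-23b matched 2 hairpin genes, miR-23a matched 3, miR-24 matched 4 and miR-181a matched 5. miR-15a, miR-17a and miR-130c matched 2 each. The ratios below that hold any of these, such as miR-23b to miR-27b or miR-27a-5p to miR-23a, can thus mix transcripts.

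The clusters of miR-23, miR-27 and miR-24 gave the largest of these changes. The ratio of miR-23b to miR-24 was 6.07, 7.16 and 4.79 at 4 dpa, against 0.935, 0.619 and 0.311 at 0 dpa (log2 change 3.35, SE 0.37, limma adjusted p = 1.34e-06). The ratio of miR-27a-5p to miR-23a was 5.84, 7.74 and 5.32 at 4 dpa, against 0.971, 1.16 and 0.392 at 0 dpa (log2 change 3.02, SE 0.34, limma adjusted p = 1.47e-06). The ratio of miR-27b to miR-24 was 200.0, 158 and 166 at 4 dpa, against 26.6, 29.1 and 21.6 at 0 dpa (log2 change 2.74, SE 0.29, limma adjusted p = 1.22e-06). The neighbours miR-27b and miR-23b both rose, and their ratio was not called (log2 change −0.61, limma adjusted p = 0.14). Likewise the ratio of miR-23a to miR-24 was not called (log2 change 0.00, limma adjusted p = 0.988). Other ratios in these clusters were called. The ratio of miR-27d to miR-23b was 10.2, 9.24 and 12 at 4 dpa, against 32.9, 52.3 and 62.4 at 0 dpa (log2 change −2.17, SE 0.28, limma adjusted p = 7.76e-06). Since the miR-27d row can hold tags of miR-27b, this ratio may not be that of the miR-27d hairpin. The ratio of miR-23a to miR-27e was called lower (log2 change −0.74, limma adjusted p = 0.0327). That call was lost without 4 dpa replicate 1 (limma adjusted p = 0.115), among other fits.

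Other neighbours that changed in opposite directions were miR-30d (higher) and miR-30b (lower), miR-454b (higher) and miR-130c (lower), and miR-15a (higher) and miR-16c-3p (lower). The ratio of miR-30d to miR-30b was 20.6, 25.4 and 26.2 at 4 dpa, against 5.2, 7.43 and 6.45 at 0 dpa (log2 change 1.92, SE 0.25, limma adjusted p = 7.76e-06). The ratio of miR-16c-3p to miR-15a was 8.5, 10.5 and 7.37 at 4 dpa, against 57.8, 19.4 and 34.4 at 0 dpa (log2 change −1.88, SE 0.46, limma adjusted p = 0.0039). In the miR-17-92 cluster, the ratio of miR-19b to miR-17a was 1.84, 2.27 and 2.17 at 4 dpa, against 6.22, 6.92 and 3.25 at 0 dpa (log2 change −1.29, SE 0.36, limma adjusted p = 0.00989). This call was lost without 4 dpa replicate 1 (limma adjusted p = 0.0565).

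miRNAs that mark cell types were described as lists, against a median log2 fold-change of −0.10 over all 146 and shares of 21.9% called higher and 19.2% called lower. With miR-21 kept in the totals the overall median was −1.37 and the median of every list was below 0. Of 7 epithelial miRNAs 3 fell, against 19.2% of all miRNAs, and none rose, with a median of −1.41. The 3 were miR-203b, miR-200b and miR-141, while miR-205, miR-429a, miR-429b and miR-203a were not called. Together the 7 took 6.26%, 6.33% and 6.07% of tags other than miR-21 at 4 dpa, against 8.33%, 9.14% and 7.96% at 0 dpa.

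Of 7 blood and immune cell miRNAs only miR-150 of lymphocytes was called, against 41.1% of all miRNAs, and it fell (log2 fold-change −0.92, SE 0.28, limma adjusted p = 0.0303). The median of the list was −0.29. The list took 7.36%, 5.82% and 6.14% of tags at 4 dpa, against 4.87%, 6.01% and 5.54% at 0 dpa, with overlap between the days. miR-142a and miR-142b, markers of all blood cells, had the widest spread within a day of all miRNAs at 50 CPM or more. miR-142a had 1761, 428 and 655 CPM at 4 dpa, against 407, 1159 and 3288 CPM at 0 dpa. miR-142b had 751, 140.3 and 224 CPM at 4 dpa, against 114, 365 and 1308 CPM at 0 dpa. Both were high in 4 dpa replicate 1 and 0 dpa replicate 3, with SDs within a day of 1.29 and 1.51 on the log2 scale. miR-223 of myeloid cells had 43.1, 43.2 and 39.2 CPM at 4 dpa, against 25.1, 37.9 and 52.9 CPM at 0 dpa. The part of blood cell content in other results was not tested.

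Of 7 vessel and mesenchyme miRNAs, miR-143 rose and miR-199 fell, against 21.9% and 19.2% of all miRNAs, with a median of 0.05 that turned to −1.38 with miR-21 in the totals. miR-143, abundant in smooth muscle and mesenchyme, had 8089, 10343 and 8293 CPM at 4 dpa, against 3227, 3406 and 3990.2 CPM at 0 dpa (log2 fold-change 1.33, SE 0.17, limma adjusted p = 0.00054). miR-145, from the same transcript, had 101, 89.9 and 66.7 CPM at 4 dpa, against 278, 203 and 79.3 CPM at 0 dpa, and was not called (log2 fold-change −0.93, limma adjusted p = 0.131). miR-126a of endothelium had 1966, 2251 and 2028 CPM at 4 dpa, against 1892, 2036 and 2092 CPM at 0 dpa, and was not called (log2 fold-change 0.05, limma adjusted p = 0.809).

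Of 9 neural and sensory miRNAs 4 rose, against 21.9% of all miRNAs, and none fell, with a median of 0.57 that turned to −0.85 when miR-21 was kept in the totals. The 4 were miR-132, miR-212, miR-182 and miR-7b. With miR-462 left out of the totals 3 rose, and miR-7b was not called (limma adjusted p = 0.0526). miR-182, cut from 1 transcript with miR-183 and miR-96 in sensory organs, had 4926, 5082 and 5849 CPM at 4 dpa, against 3601, 3119 and 3505 CPM at 0 dpa (log2 fold-change 0.63, SE 0.15, limma adjusted p = 0.011). miR-183 and miR-96 were not called, at 0.21 and −0.18. miR-9, a defining miRNA of the nervous system, was at 18, 7.19 and 19.6 CPM at 4 dpa, against 34.7, 27.1 and 26.4 CPM at 0 dpa, and was not called (log2 fold-change −0.89, limma adjusted p = 0.114).

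Among 8 hox cluster miRNAs miR-196b rose and 3 fell, miR-10b, miR-10c and miR-196d, against 21.9% higher and 19.2% lower over all miRNAs, with a median of −0.65. Against the same shares, in the let-7 list 1 of 9 rose and in the list of miR-17-92 and its paralogues 1 of 12 rose (miR-25) and 2 fell (miR-19b and miR-92b), with medians of 0.02 and 0.11 that turned to −1.41 and −1.18 with miR-21 in the totals. Of 11 miRNAs first described in fish 3 fell, miR-2184, miR-725 and miR-722, against 19.2% of all miRNAs, and none rose. The median of the list was −0.37. The list holds miR-722, miR-735 and miR-740. The paper left these and miR-7146 out of its analysis, since their genomic positions were at odds with miRBase. Their rows are in the deposited values and were kept here. The study's own 10 shared miRNAs were chosen partly on these libraries, so their 5 calls higher and 4 lower are not independent evidence. Of these, miR-7b had 111, 50.3 and 43.1 CPM at 4 dpa, against 15.4, 24.9 and 29.4 CPM at 0 dpa (log2 fold-change 1.33, SE 0.43, limma adjusted p = 0.0401). Its call was lost without 4 dpa replicate 1 or 2 or 0 dpa replicate 1 or 2, with limma adjusted p of 0.0596 to 0.137, and with miR-462 left out of the totals (limma adjusted p = 0.0526).

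Some miRNAs had 3 tags or fewer in each 4 dpa library and a mean of at least 10 tags at 0 dpa. They were chosen by these counts, so ratios below 1 follow from the rule and are not evidence of a fall. The intervals given here pool the libraries of a day and leave out the spread between them. miR-133a, of skeletal and heart muscle, had 1, 2 and 1 tags at 4 dpa, against 5, 13 and 21 tags at 0 dpa. Per tag other than miR-21 its ratio of 4 dpa to 0 dpa was 0.225 (95% exact interval 0.0585 to 0.624, counting error only), and it was not called (log2 fold-change −1.53, SE 0.62, limma adjusted p = 0.0868). Its log2 fold-change was −0.84 without 0 dpa replicate 3, and it was called without 0 dpa replicate 1 (−1.98, limma adjusted p = 0.0499), with miR-21 kept in the totals (−2.06, limma adjusted p = 0.0125) and with no scaling (−2.42, limma adjusted p = 0.0123). This defining muscle miRNA was thus rare in the fins on both days. miR-29b, which represses collagens in mammals, had 1, 0 and 3 tags at 4 dpa, against 3, 32 and 17 tags at 0 dpa, a ratio of 0.169 (0.0444 to 0.459), with overlap between the days (log2 fold-change −1.80, SE 0.76, limma adjusted p = 0.0965). miR-429b and miR-730 had ratios of 0.307 (0.107 to 0.723) and 0.377 (0.129 to 0.905) and were not called. miR-722, named although its mean at 0 dpa was under 10 tags, had 0, 0 and 0 tags at 4 dpa, against 7, 14 and 4 tags at 0 dpa. As stated above, the paper left this miRNA out of its analysis. With 3 tags set in place of 0 over the 4 dpa group, miR-722 was 3.79-fold lower. This value is not a bound, since the 95% exact interval of its ratio reached up to 0.349. No miRNA showed the opposite pattern, with 3 tags or fewer in each 0 dpa library and a mean of 10 or more at 4 dpa. Tags were not scaled for this rule. Each 0 dpa total was larger than each 4 dpa total, so the opposite pattern was harder to meet. miR-551 had 14, 14 and 10 tags at 4 dpa, against 2, 11 and 2 tags at 0 dpa, and was called higher (log2 fold-change 2.23).

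Shares of miRNAs grouped by the arm of their listed product were close on the 2 days. Tags from the 3p arm made up 22.5% ± 1.34 of tags other than miR-21 at 4 dpa and 22.5% ± 2.20 at 0 dpa (SD, n = 3 each, exact permutation p = 1). These shares go by the names of the rows. The study's list gives the most highly expressed mature product of each miRNA, so tags of the other arm of a hairpin are not included. Whether the use of arms within a hairpin changed was therefore not tested. With miR-132-1-3p counted in the 5p arm, as the study's list of precursors has it, 22 of 78 miRNAs of the 5p arm were called higher and 10 lower, and of 67 of the 3p arm 9 were called higher and 18 lower. Over all miRNAs 21.9% were called higher and 19.2% lower, and the difference between the arms was not tested.

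The first base of the tags differed between the days. Tags that start with U took 62.1% ± 1.54 at 4 dpa and 77.3% ± 1.88 at 0 dpa (SD, n = 3 each), and tags that start with A took 36.4% ± 1.56 and 21.4% ± 1.80. The days were separate, and the exact permutation p of 0.1 for U is the smallest that the design allows. miR-181a, which starts with A, took 23.5% of tags at 4 dpa and 11.2% at 0 dpa by itself. With miR-21, which starts with U, kept in the totals, the shares of U were 87.5% at 4 dpa and 79.8% at 0 dpa, the opposite order. Of 93 miRNAs that start with U 15 were called higher and 24 lower, and of 33 that start with A 11 were called higher and 3 lower. The shares called in either direction were 41.9% for U and 42.4% for A, against 41.1% over all miRNAs, and the difference between the bases was not tested.

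Base content was described in the same way. The median GC content was 47.6% among miRNAs called higher and 40.9% among those called lower, against 43.5% over all 145. Across miRNAs, Spearman's rho of the log2 fold-change was 0.22 with GC content and 0.24 with tag length (n = 145, given as a description, since the miRNAs share libraries and families). Tags with GC above the median took 75.1% ± 0.0971 of the libraries at 4 dpa and 62.7% ± 0.792 at 0 dpa (SD, n = 3 each). The 3 miR-181 members, all above the median, took 26% of tags at 4 dpa and 11.7% at 0 dpa by themselves. By length, of 38 tags of 23 to 25 bases 13 were called higher and 3 lower. Of 84 tags of 22 bases 14 were called higher and 17 lower. Of 23 tags of 20 to 21 bases 4 were called higher and 8 lower. Over all 146 miRNAs 21.9% were called higher and 19.2% lower. Whether base content or length played a part in the changes was not tested.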

How the data were processed

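Small RNA of caudal fin was measured in 3 libraries at 4 dpa and 3 at 0 dpa, each from several pooled fins, sequenced on a single Illumina lane. The authors clipped adapters, trimmed the reads, collapsed them into tags (FASTX Toolkit), kept tags of 20 to 25 bases, named them with miRMiner from miRBase and the Zv9 genome, and took tag counts. The deposited log2 values are named log CPM, but 2 to the power of each value, less 1, was whole within 0.01 in 100% of cells, so the authors' values are log2(tag count + 1) with no scaling. The mRNA table was not analysed here.

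Recovered counts were divided by each library's total of 145 distinct miRNAs other than miR-21 and expressed per 1000000 (CPM). log2(CPM + 4) was fitted with limma (lmFit, eBayes with trend), and p-values were adjusted by Benjamini-Hochberg over all 146 miRNAs, 93 seed sums, 116 same-seed pairs or 63 neighbouring-hairpin pairs. A fold-change on this scale understates that of rare miRNAs. Calls had an adjusted p under 0.05. Shares were compared with two-sided exact permutation tests. Hairpins came from RefSeq. The tests were checked on simulated data.

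Named were the 10 most abundant miRNAs of each day, the 12 largest called rises and falls with a mean of at least 50 CPM and separate days, the called families and same-seed pairs with the largest changes (10 each), the families with the 5 largest shares, miRNAs with at most 3 tags in every library from 1 day, the study's 10 and examples from the lists. The miRNAs with at most 3 tags also had a mean of at least 10 tags on the other day, except miR-722. The members and lists were chosen with earlier results of these data known. Alternatives were other scalings, a filter at a mean of 10 tags, other added values, limma-voom, a replicate block and leaving out each library. R 4.3.3, limma 3.58.1, Python 3.11.15, NumPy 2.4.6, pandas 2.3.3, SciPy 1.17.1 and Matplotlib 3.10.9 were used.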

Additional observations from a re-analysis of the deposited data

How the results depend on the processing

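The scaling of libraries set the directions. With miR-21 kept in the totals, 110 miRNAs (8 higher, 102 lower) and 69 seed families were called, and the log2 fold-changes became −0.35 for miR-181a, −1.13 for miR-146a, −0.025 for miR-27b and −1.32 for miR-92a. Those of the seeds became −0.11 for AGCAGCA, −0.14 for GCTACAT, −0.27 for ACATTCA, −0.47 for GTAAACA, −0.88 for TCACAGT and −1.17 for GAGAACT. With no scaling 15 of the 24 largest rises and falls were called, and GTAAACA and TCACAGT were at −0.045 and −0.46. With miR-21 kept, the difference of 4 dpa minus 0 dpa was 16.7 percentage points for the share of the 10 most abundant miRNAs, −18.5 for the effective number, −12.7 points for the 3p arm and 7.75 points for tags starting with U. With miR-462 also left out it was −4.69 for the effective number and −17.4 points for U. Without 1 library at a time, 46 to 65 miRNAs, 31 to 44 families, 38 to 53 same-seed pairs, 17 to 27 neighbouring pairs and 24 of 24 named rises and falls were called. None of 486 named values was scored as reversed, but small differences that were not called could change sign. The log2 fold-change of miR-92a was −0.008 without 0 dpa replicate 3, and that of miR-22a was 0.053 without 4 dpa replicate 1. Across these fits the composition differences ranged over −1.55 to −0.31 points (the 10 most abundant), −3.57 to −1.85 (effective number), −1.30 to 0.73 points (3p arm) and −16.1 to −14.1 points (U). Same-numbered libraries did not deviate together (correlations −0.43, −0.04 and 0.07), and the replicate block gave 57 miRNAs, 35 families, 49 same-seed pairs and 21 neighbouring pairs. With the block the adjusted p was 0.0688 for miR-7b and 0.0641 for the miR-19 seed (GTGCAAA). Voom was not run for pairs, since ratios are not counts. The cause of these differences was not tested beyond the totals themselves. Depth limits the miRNAs of few tags, of which a single tag at 4 dpa was worth 3.59 to 3.92 CPM.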
